A study of Arabidopsis thaliana with 12 samples.

Results

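The serine carboxypeptidase-like genes (symbols beginning with scpl) encode one family of plant enzymes. The 29 members described here are all the genes of that symbol on the array that had a probe set naming 1 gene, with 1 probe set each, weak ones included, out of 22810 probe sets. The gene table used for names holds 51 genes of the family, and the other 22 were not analysed here. Of the 29 members, 17 had enough signal to be tested, among 14745 probe sets tested in all.

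Transcript levels were measured in whole roots of Arabidopsis thaliana on 12 single-colour GeneChips, 3 each for cngc4, cngc1, akt1 and ws2. The mutants cngc4 and cngc1 each lack a channel of the cyclic nucleotide-gated cation channel family, and akt1 (line akt1-1) lacks an inward potassium channel of root cells. The series title asks how expression differs in mutants without these channels. The wild type ws2 is the accession Wassilewskija. The labels give Wassilewskija also for akt1 and give no accession for cngc4 and cngc1, whose alleles are not named either, so for these lines mutation and accession cannot be told apart. All plants were labelled growth stage 3.90, no treatment or age is given, and each sample pooled 20 to 40 plants. The labels do not say whether replicates were grown apart, so a p-value here covers no more than the spread among these arrays. The transcripts of the mutated channel genes were not used here, and no genotype label was tested against them.

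Proteins of this family share the fold and the serine-centred catalytic site of serine carboxypeptidases, which cut single amino acids from the carboxyl end of proteins. Some members kept that activity, such as vacuolar carboxypeptidase Y. Another branch became acyltransferases, which move acyl groups such as sinapoyl from a glucose ester to another molecule; SNG1, which makes sinapoylmalate, is the best known. BRS1, a secreted member, affects signalling by the brassinosteroid receptor BRI1. For most members no individual function is given here.

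In cngc4 roots, 4 of the 17 tested members fell relative to ws2, none rose and 13 did not pass. The 4 were scpl40, scpl48, scpl28 and SCPL34, with log2 fold changes between -0.87 and -0.54. Among all tested probe sets, 9.09% passed in either direction, 4.39% as lower and 4.69% as higher. After median centring of the arrays, the share of lower calls among all called probe sets was 37.4%, against 48.4% without centring, and 3 members were called. In cngc1 and akt1 no member passed against ws2. A further member, SCPL32, was too weak for the filter on low signal and is described separately.

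Values are the deposited linear signals, in arbitrary units. A log2 fold change is the difference in mean log2(signal + 16), so weak probe sets differ by more than it shows. Calls are those of limma fitted to all tested probe sets with a Benjamini-Hochberg adjusted p under 0.05. Among the tested members, standard errors were between 0.12 and 0.30, with a median of 0.16. The 40th percentile of an array, used as the limit for weak signal, lay between 29 and 33.7. One array, cngc1 replicate 3, stood apart, with 1251 outlier cells against 299 to 620 on the other 11 and the lowest mean correlation with its own group (0.954). Without it 5 members were called in cngc4 against ws2, and 1498 of all tested probe sets, against 1340 with it. In whole roots, fewer cells of a type and less RNA per cell cannot be told apart.

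The carboxypeptidase Y branch is represented by scpl47, scpl48 and SCPL49, and scpl48 fell in cngc4. The signal of scpl48 (AT3G45010) was 180.0, 138.2 and 165.2 on the cngc4 arrays, 232.1, 221.4 and 198.0 in cngc1, 202.4, 325.3 and 357.3 in akt1, and 271.5, 265.2 and 294.6 in ws2. All 3 cngc4 arrays lay below every array of the other genotypes, and the cngc1 arrays lay below every ws2 array. The akt1 arrays spread widely, with 1 near cngc1 and 2 above all ws2 arrays. Against ws2 the log2 fold change of scpl48 in cngc4 was -0.73 (SE 0.17, adjusted p = 0.0189), which is 1.66-fold lower on that scale. Against akt1 it was -0.78 (adjusted p = 0.014), and against cngc1 it was -0.40 and did not pass (adjusted p = 0.186).

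The other 2 members of that branch had no call. SCPL49, listed as carboxypeptidase Y in the gene table, averaged 514.7 ± 84.4 in cngc4, 614.9 ± 26.7 in cngc1, 524.6 ± 21.4 in akt1 and 587.8 ± 104 in ws2 (SD, n = 3 each). The cngc4 and ws2 arrays overlapped, and the log2 fold change of -0.18 had a 95% interval of -0.51 to 0.14. The third, scpl47, was weak, at 9.8 to 33.8 over the 12 arrays, and was not tested.

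**Figure D1:**
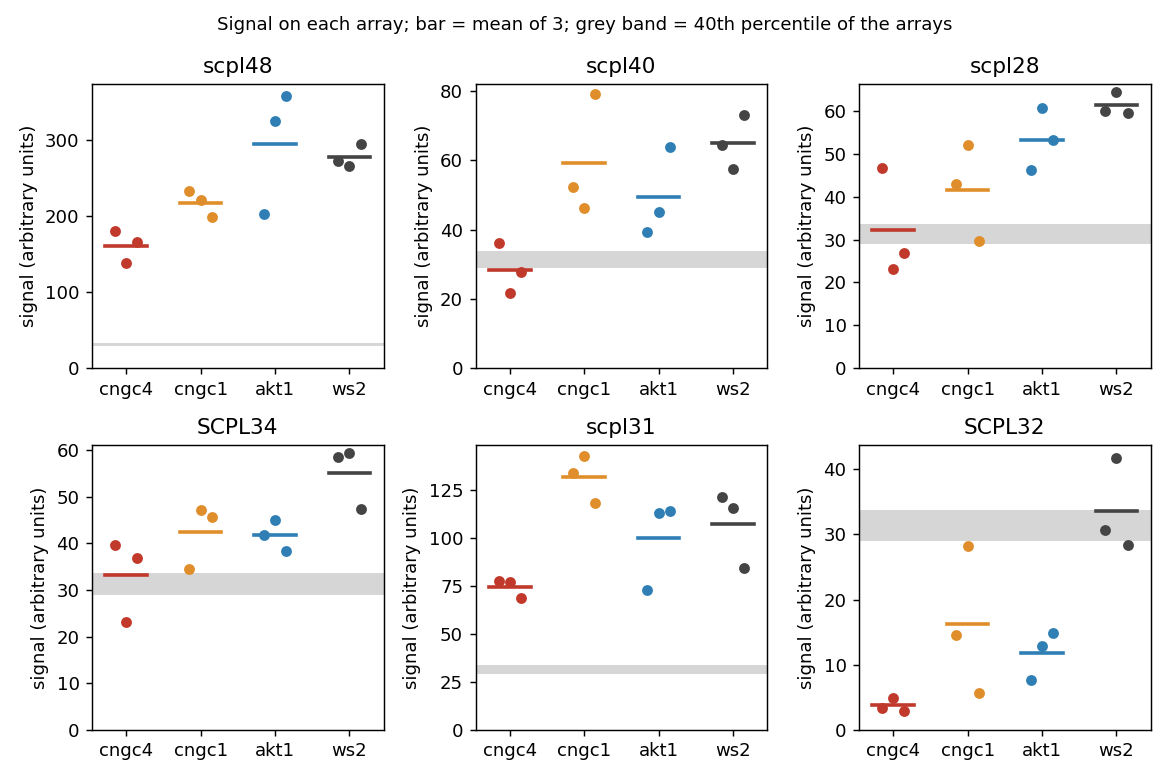
Signal of 6 members on each array (arbitrary units, linear axes starting at 0), with cngc4, cngc1, akt1 and ws2 from left to right; points are arrays, bars are means of 3, and the grey band is the range of the 40th percentile over the arrays. The cngc4 points of scpl48, scpl40, scpl28, SCPL34 and SCPL32 lie below all ws2 points, and those of scpl31 do too, while its highest mean is that of cngc1.

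Among members with no individual role given here, scpl40 (AT3G63470) fell in cngc4 to signals near the limit for weak signal. Its signal was 36.0, 21.6 and 27.7 in cngc4, 52.3, 46.3 and 79.2 in cngc1, 39.2, 45.1 and 63.9 in akt1, and 64.3, 57.6 and 73.1 in ws2. The cngc4 arrays lay below all 9 others, and 2 of the 3 were under the 40th percentile of their array, so the size of the fall is not exact. The log2 fold change against ws2 was -0.87 (SE 0.18, adjusted p = 0.0102), or -1.22 with no offset and -0.48 with an offset of 64. At that last offset scpl48 gave -0.60, so the order of these members by size depends on the offset. Against cngc1 it was -0.75 (adjusted p = 0.0298), or -0.41 with an offset of 64 and -0.57 without cngc1 replicate 3 (adjusted p = 0.131), and against akt1 it was -0.55 and did not pass (adjusted p = 0.0737).

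scpl28 and SCPL34 fell in cngc4 with adjusted p closer to the threshold. The signal of scpl28 (AT2G35770) was 46.8, 23.2 and 26.8 in cngc4, 42.9, 52.1 and 29.7 in cngc1, 46.2, 60.6 and 53.1 in akt1, and 60, 64.3 and 59.5 in ws2. All cngc4 and cngc1 arrays lay below the ws2 arrays, while akt1 overlapped both cngc4 and ws2. The log2 fold change of scpl28 in cngc4 against ws2 was -0.71 (SE 0.18, adjusted p = 0.0267), and it did not pass against akt1 (-0.55) or cngc1 (-0.27). Its size is not exact, since 2 of the 3 cngc4 arrays were under their 40th percentile. It was -0.99 with no offset and -0.39 with an offset of 64. SCPL34 (AT5G23210) gave 39.7, 23.1 and 36.8 in cngc4, 34.4, 47.1 and 45.7 in cngc1, 41.7, 45.1 and 38.4 in akt1, and 58.6, 59.3 and 47.4 in ws2. Every array of the 3 mutants lay below every ws2 array, although only the cngc4 difference passed, at -0.54 (SE 0.16, adjusted p = 0.0429). It was -0.76 with no offset and -0.30 with an offset of 64, and 1 cngc4 array was under its 40th percentile.

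The gene next to scpl28 had no call. In the gene table scpl28 and scpl26 are adjacent protein-coding genes of chromosome 2. The signal of scpl26 averaged 147.0 ± 8.78 in cngc4, 144.9 ± 15.1 in cngc1, 126.2 ± 19.0 in akt1 and 156.9 ± 19.8 in ws2 (SD, n = 3 each). Its log2 fold change in cngc4 was -0.08 against ws2 (adjusted p = 0.768), and the arrays overlapped. The difference from scpl28 was not tested. The other adjacent pair, scpl22 and scpl23, which are close relatives of BRS1, was weak on every array, at 2.3 to 16.8 and 2.6 to 7.4, and neither was tested.

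One more member, scpl31 (AT1G11080), was called between cngc4 and cngc1 and not between cngc4 and ws2. Its signal was 77.6, 76.8 and 68.6 in cngc4, 133.9, 142.7 and 118.1 in cngc1, 72.8, 112.9 and 113.9 in akt1, and 121.1, 115.6 and 84.2 in ws2. The cngc4 arrays were below all ws2 and cngc1 arrays, and akt1 replicate 1 lay within the cngc4 range. The log2 fold change of cngc4 against cngc1 was -0.71 (SE 0.16, adjusted p = 0.022). This call was lost without a filter (adjusted p = 0.0529), without cngc4 replicate 2 (0.0945) or 3 (0.0611), and without cngc1 replicate 2 (0.0623). The log2 fold change of cngc4 against ws2 was -0.43 and did not pass (adjusted p = 0.111).

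SCPL45 and scpl35 did not pass between cngc4 and ws2 by a small margin. SCPL45 averaged 53.0 ± 4.03 in cngc4, 75.3 ± 11.3 in cngc1, 64.6 ± 15.1 in akt1 and 79.7 ± 9.03 in ws2 (SD, n = 3 each), with a log2 fold change of -0.47 in cngc4 against ws2 (adjusted p = 0.0589). For scpl35 the means were 93.3 ± 2.84 in cngc4, 131.5 ± 11.0 in cngc1, 111.3 ± 14.3 in akt1 and 129.2 ± 16.2 in ws2, with a log2 fold change of -0.40 (adjusted p = 0.0619). For both genes all cngc4 arrays were below all ws2 arrays. In all, 8 of the 17 tested members had cngc4 arrays entirely below the ws2 arrays, against 15.9% of all tested probe sets, and none had them entirely above, against 15%. With the 4 called members, scpl31, SCPL45 and scpl35, scpl33 completes these 8, at -0.21 (adjusted p = 0.444). The signal of scpl33 was under the 40th percentile on all 3 cngc4 arrays and on 2 of the 3 ws2 arrays. It passed the filter with 4 arrays, of which only ws2 replicate 2 belongs to this comparison.

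The remaining tested members did not pass between cngc4 and ws2. Among them, scpl29 averaged 185.0 ± 31.4 in cngc4, 193.1 ± 2.2 in cngc1, 197.5 ± 25.5 in akt1 and 209.0 ± 14.7 in ws2 (SD, n = 3 each), and its log2 fold change was -0.17. SCPL27 (-0.24), scpl44 (-0.12), scpl25 (-0.04), SCPL43 (-0.01) and scpl50 (0.00) did not pass either. The precision differed between them: the standard error was 0.12 for scpl25 and 0.30 for SCPL43, whose signal ran from 9.0 to 57.0 over the 12 arrays.

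The branch that holds the acyltransferases lay mostly under the limit for weak signal. Of its members scpl16, scpl18, scpl20 and scpl21, which are relatives of SNG1, only scpl20 was tested; it averaged 48.6 ± 7.19 in cngc4 and 52.5 ± 8.36 in ws2 (SD, n = 3 each), with a log2 fold change of -0.08 (adjusted p = 0.792). scpl18 and scpl21 stayed at or below 24.6 on every array. Of the 29 members, scpl16 was the only one with a higher signal on every cngc4 array than on every ws2 array, at 16.8, 8.6 and 22.9 in cngc4 and 1.7, 1.7 and 6.2 in ws2, while 11.1% of all probe sets did so. These signals lay under the 40th percentile throughout, and in the fit without a filter it did not pass (adjusted p = 0.0981). No acyltransferase activity or product was measured.

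SCPL32 (AT1G61130) read below ws2 on every mutant array and was left out of the tests by its weak signal. It read 3.4, 4.9 and 2.9 in cngc4, 14.6, 28.2 and 5.7 in cngc1, 7.7, 12.9 and 14.9 in akt1, and 30.7, 41.8 and 28.4 in ws2. Every array of the 3 mutants lay below every ws2 array, and the cngc4 arrays lay below all others. With it, 9 of the 29 members had cngc4 arrays entirely below the ws2 arrays, against 14% of all probe sets. Only 1 array, ws2 replicate 2, was above its 40th percentile. In the limma fit without a filter on low signal, which tested 22746 probe sets, SCPL32 fell in cngc4 by 1.32 on the log2 scale (adjusted p = 0.00813), and it did not pass in akt1 (-0.83, adjusted p = 0.949) or cngc1 (-0.68, adjusted p = 0.61). It passed in cngc4 in all 16 further settings run without the filter, with adjusted p from 0.00282 to 0.0403, while the size ran from -3.19 with no offset to -0.53 with an offset of 64. In the fit without a filter 3 of the 29 members passed in cngc4, SCPL32, scpl40 and scpl48, against 3.57% of all probe sets. SCPL32, scpl16, SCPL45, scpl35, scpl33, scpl38 and scpl42 were singled out after their values were seen.

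**Figure D2:**
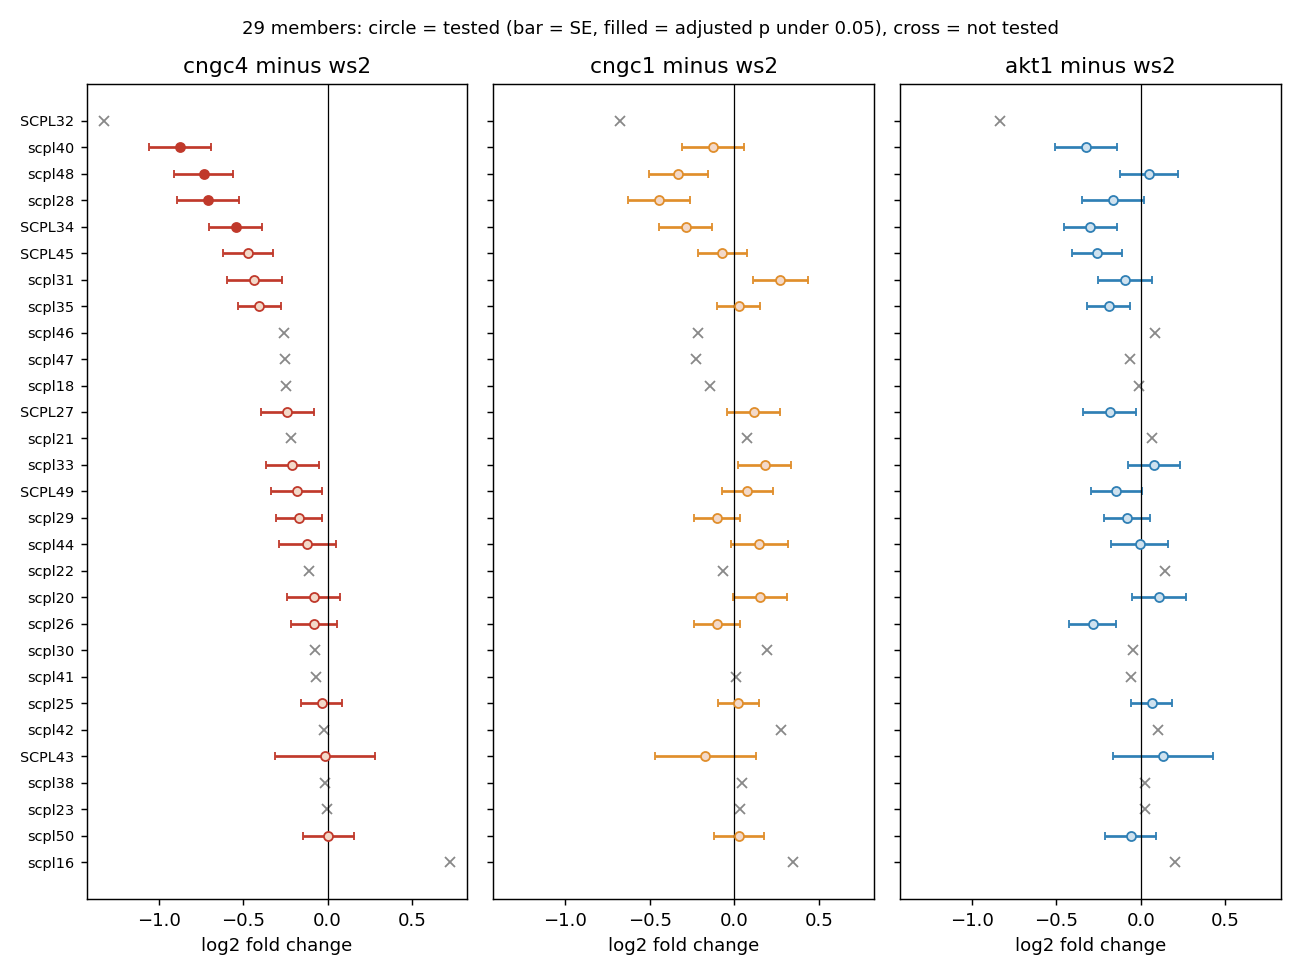
Log2 fold change of the 29 members in cngc4, cngc1 and akt1 (left to right), each against ws2; circles are tested members with their standard errors, filled where the adjusted p was under 0.05, and crosses are members too weak to be tested. Filled circles appear for scpl40, scpl48, scpl28 and SCPL34 in cngc4 and for none in the other 2 mutants.

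In cngc1 roots no member passed against ws2. The 3 with the smallest p were scpl28 (log2 fold change -0.44, adjusted p = 0.646), scpl48 (-0.33, adjusted p = 0.717) and SCPL34 (-0.29, adjusted p = 0.726). Their cngc1 arrays lay below all ws2 arrays, as did those of scpl29, so that 4 of 17 tested members showed this, against 5.85% of all tested probe sets. For scpl48 the 95% interval of the difference ran from -0.70 to 0.04. Limma called 0 of 17 members, with 1 at an unadjusted p under 0.05 (7.32% of all probe sets), and 0.00678% of all probe sets. Of the 17 log2 fold changes 8 were negative and 9 positive, with a median of 0.03. Of all tested probe sets 47.5% were negative, with a median of 0.01. Over all 29 members, 2 untested ones, scpl38 and scpl42, had cngc1 arrays entirely above the ws2 arrays, against 6.42% of all probe sets. For scpl42 these were 33.8, 30.8 and 29 in cngc1 and 24.3, 21.9 and 22.6 in ws2, and it did not pass in the fit without a filter (adjusted p = 0.693).

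In akt1 roots no member passed either. The 3 with the smallest p were scpl26 (log2 fold change -0.28), SCPL34 (-0.30) and SCPL45 (-0.26), each with adjusted p = 0.957. Limma called 0 of 17 members, with 0 at an unadjusted p under 0.05 (5.06% of all probe sets), and 0% of all probe sets. Of the tested members only SCPL34 had akt1 arrays entirely below the ws2 arrays, against 5.28% of all tested probe sets. The median log2 fold change of the tested members was -0.09, with 12 negative and 5 positive. Of all tested probe sets 54% were negative, with a median of -0.02. scpl48 gave 0.05 in akt1, with a sign that turned to -0.04 without akt1 replicate 2 and to -0.10 without akt1 replicate 3.

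Set against the other mutants, 2 tested members passed as lower in cngc4 than in cngc1, scpl31 and scpl40. Of all probe sets, 5.17% passed in either direction and 1.94% as lower. After median centring 26.4% of the called probe sets were lower, against 37.5% without. Against akt1 only scpl48 passed as lower, while 8.88% of all probe sets passed and 4.34% as lower. No member passed between cngc1 and akt1, where limma called 0.00678% of all probe sets and 2 members had an unadjusted p under 0.05 (11.2% of all probe sets). The comparisons of cngc4 share its 3 arrays and are given side by side.

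**Figure D3:**
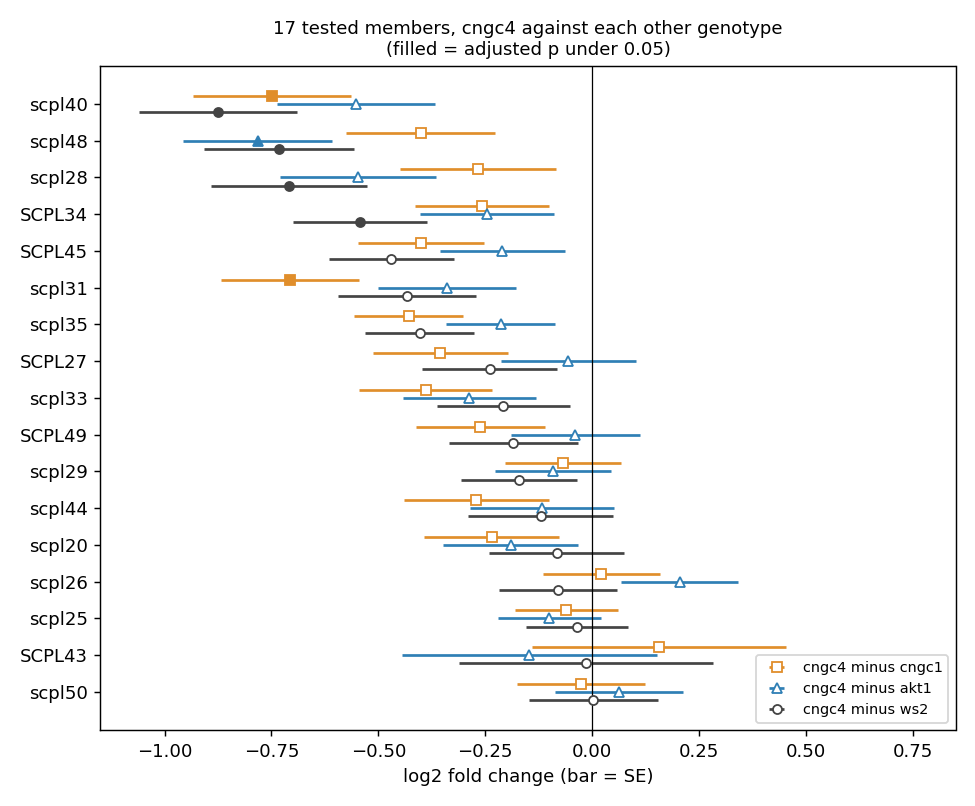
Log2 fold change (with standard error) of the 17 tested members in cngc4 against cngc1 (squares), akt1 (triangles) and ws2 (circles), filled where the adjusted p was under 0.05. Most points lie below 0 in each of the 3 comparisons, with negative values for 15 members against cngc1, 15 against akt1 and 16 against ws2. Of all tested probe sets, 56.6% were negative against cngc1, 50.6% against akt1 and 54% against ws2.

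Across the family, cngc4 had the lowest genotype mean in 14 of the 17 tested members (82.4%), while this held for 37.3% of all tested probe sets. Over all 29 members it was 25 (86.2%), against 38.2% of all probe sets. The members this adds were too weak to be tested, and some differed very little. For scpl23 the mean was 3.97 in cngc4 and 4.0 in ws2. The exceptions were scpl26 and scpl50, lowest in akt1, SCPL43, lowest in cngc1, and scpl16, lowest in ws2. The median log2 fold change of all 29 members in cngc4 against ws2 was -0.18, and that of all probe sets was -0.03. The members share arrays, so they are not independent.

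On every mutant array, the share of tested members below the lowest ws2 array exceeded that of all tested probe sets, on some only slightly. It was 35.3% against 33.2% on akt1 replicate 2, and 29.4% against 26.1% on cngc1 replicate 3. Of the 17 tested members, 8 lay below the lowest ws2 array on cngc4 replicate 1 (31.4% of all tested probe sets), 12 on replicate 2 (37%) and 11 on replicate 3 (29.7%). On cngc1 replicates 1 and 2, 7 members did so on each (25.3% and 25.8% of all tested probe sets), and 5 on replicate 3 (26.1%). On the akt1 arrays 5 to 11 members did so (20.8% to 33.2%). The 11 of akt1 were on replicate 1, where 29.8% of all tested probe sets did so. Above the highest ws2 array lay 0 to 1 tested members on the cngc4 arrays (27.5% to 30.6% of all tested probe sets). On the cngc1 arrays 3 to 6 lay above it (24.8% to 32.8%), and on the akt1 arrays 2 to 3 (23.9% to 25.6%). On cngc1 replicate 3, 6 members lay above every ws2 array and 5 below.

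**Figure D4:**
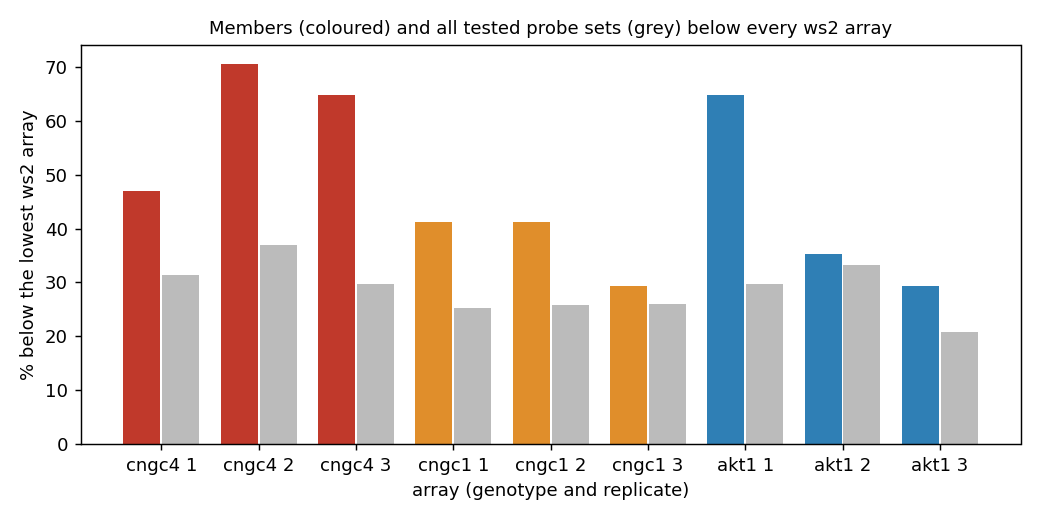
Percent of the 17 tested members (coloured) and of all 14745 tested probe sets (grey) whose signal lay below the lowest ws2 array, for each mutant array with cngc4, cngc1 and akt1 from left to right. The highest coloured bar is cngc4 replicate 2 at 70.6%, followed by cngc4 replicate 3 and akt1 replicate 1 at 64.7% each.

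The number of calls in cngc4 moved with the arrays used, for the members as for all probe sets. Without cngc4 replicate 2 none of the 4 members passed against ws2, while calls over all probe sets were 322, against 1340 with all arrays. The 4 members' log2 fold changes were -0.76 for scpl40, -0.64 for scpl48, -0.58 for scpl28 and -0.39 for SCPL34. cngc4 replicate 2 had the highest 3-prime to 5-prime ratio of the GAPDH control, 1.82, against 1.03 to 1.70 on the other 11. Its ratio of the actin control, 5.96, lay inside the range of the 12 arrays, 4.66 to 7.35. The part of these ratios in the result was not tested. The members' count was 2 with cngc4 replicate 3 left out (1089 of all probe sets) or ws2 replicate 3 left out (886). It was 1 with ws2 replicate 1 left out (669) or ws2 replicate 2 left out (586). Against akt1, where all arrays gave 1310 calls, it was 0 without cngc4 replicate 2 (304), akt1 replicate 2 (349) or akt1 replicate 3 (719). It was 2 without cngc4 replicate 1 (849), and 3 without akt1 replicate 1 (1459) or cngc1 replicate 3 (1548). Against cngc1, where all arrays gave 762 calls, it was 0 without cngc4 replicate 2 (129) or 3 (615), and 1 without cngc1 replicate 2 (567) or 3 (248). The titles mark cngc4 replicate 1 and ws2 replicates 2 and 3 as repeats: within unmarked arrays (2 of cngc4, 1 of ws2) the 4 members read -0.99, -0.78, -0.89 and -0.72, in the order above, and within marked arrays (1 of cngc4, 2 of ws2) -0.64, -0.59, -0.31 and -0.31. With 1 array on a side these are values without a usable test: of all 14745 probe sets, 13 were called within unmarked and 5 within marked arrays.

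Some markers of shoot tissue rose in cngc4. Of the 28 listed, 7 could be followed and 6 were tested, of which the antenna gene LHCB4.1 and the chlorophyll synthesis gene CHLM rose in cngc4 against ws2. The 7 markers' summed signal was between 702.1 and 901.3 in cngc4, between 342.2 and 507.6 in cngc1, between 333.9 and 364 in akt1 and between 338.3 and 523.2 in ws2, and none was listed at 0. Its part in the lower scpl signals was not tested. Of 16 root tissue markers 2 were found, EXPA7 and EXPA18 of root hairs, and neither passed.

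The few other genes linked to the family's known roles that could be tested gave no call in any mutant against ws2. Of 14 genes for sinapate esters and their glucose-ester donors, 4 were matched to a probe set naming 1 gene and 2 were tested. These were UGT84A4, which makes such donors (log2 fold change -0.43 in cngc4, adjusted p = 0.0763), and ALDH2C4 (0.16). Of 14 genes of brassinosteroid perception and synthesis only the receptor gene BRL1 was matched, and it was tested, at 0.02. Genes without a match were not looked at, whatever their signal. Of other proteases of the wall, apoplast and vacuole 9 were tested and none passed. They included the vacuolar processing enzyme GAMMA-VPE (0.10 in cngc4), the subtilases ARA12 (-0.28) and SBT4.12 (-0.20), and the aspartic protease APA1 (0.20). Their median log2 fold change in cngc4 was -0.20, with 6 negative and 3 positive. The median of the 17 tested scpl members was close to this, at -0.21. For all tested probe sets it was -0.03, with 54% negative.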

How the data were processed

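RNA of 12 whole-root samples was biotin-labelled and hybridised to single-colour arrays of 22810 probe sets, per the labels' protocols. What the authors deposited is an intensity (signal) for every probe set of each array, not on a log scale. For the program and build that produced it, the sources used here give no name. Arrays had equal means once 2% of values were trimmed from either end, so each had been scaled to a common level. Median signals ran from 43.3 to 48.5 per array. The number of arrays limits the precision.

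Signals were analysed as log2(signal + 16) without further normalization. After removal of the 64 controls, tests covered those probe sets that exceeded the array's 40th percentile on 3 or more arrays. A model of 4 genotype means over the 12 arrays was fitted with limma 3.58.1 (R 4.3.3), with a mean-variance trend, two-sided tests, and Benjamini-Hochberg adjustment within each of the 6 comparisons (threshold 0.05). The method was run on simulated data with planted changes, and a minimum recovery was required only for the largest of them. The largest exceed the changes called here. Smaller changes, around the sizes called here, were planted too, but their recovery is not given here. How well changes of this size are found is therefore not shown. An exact permutation test of 3 against 3 arrays cannot go below 0.10 and was not used. Figures were drawn with matplotlib 3.10.9.

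Probe sets were named from the array's annotation table and loci from the RefSeq gene table (assembly TAIR10.1), which matched all 29 members. No coordinates were taken from it, only names and the order of genes. No member probe set is of a type shared between transcripts. Members, gene lists and the rule for named genes (scpl40, scpl48 and every member that passed with all 12 values; the 5 of highest mean signal and the 3 of smallest p per mutant with means or fold changes) were chosen with earlier results of these data known. An intended ordering by protein identity was not made, since no protein table was used here. Of 18 pairs of arrays with the same replicate number in different groups, 3 had correlated deviations above 0.1 (range -0.17 to 0.27), and replicate numbers were therefore not treated as pairing the arrays. All 12 arrays held different values.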

Additional observations from a re-analysis of the deposited data

How the results depend on the processing

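The count of members called in cngc4 against ws2 (4) was 1 of 8 with a 60th-percentile filter (1235 of 10082 probe sets called), 7 with array weights (2364 of 14745, against 1340), 1 with the repeat mark as a covariate (714), and 0 when a 2-fold change and an unadjusted p under 0.05 were asked for (259). Within unmarked or marked arrays it was 0, which says nothing about the members, since 1 side had 1 array and 13 and 5 probe sets were called in all. Leaving out each array gave 0 to 5. Against akt1 (1, with 1310 probe sets) it was 3 with array weights (1757), 2 with the replicate block (1370), 2 with the repeat mark (986), 2 within unmarked arrays (578) and 0 with the 2-fold rule (261), and 0 to 3 with an array left out. Against cngc1 (2, with 762) it was 0 without a filter (402 of 22746), within unmarked arrays (419) or with the 2-fold rule (226), 1 with the 60th-percentile filter (756 of 10082) or with only the 2 groups fitted (341), and 0 to 2 with an array left out. The cause of these changes was not tested; fits with fewer arrays or members test less. With the replicate number as a block, 3 members were called in cngc4 against ws2, SCPL34 being lost (adjusted p = 0.0612). The counts of 0 in cngc1 and akt1 against ws2 and in cngc1 against akt1 were 0 in each of these settings that could be fitted. No log2 fold change with a call changed its sign in any setting run for it. The log2 fold change of scpl48 in akt1 against ws2, 0.05, turned to -0.04 without akt1 replicate 2 and -0.10 without akt1 replicate 3, and was 0.29 without akt1 replicate 1. The settings within marked or unmarked arrays, and those of SCPL32 without a filter, were chosen after seeing the data. scpl40 passed in cngc4 against ws2 in 22 of 25 settings, scpl48 in 19 of 26, scpl28 in 16 of 25 and SCPL34 in 10 of 25. These include settings that leave out a cngc1 or akt1 array, in which the cngc4 and ws2 means stay the same. For scpl48 the call was lost with ws2 replicate 1, 2 or 3 left out (adjusted p = 0.0535, 0.0502 and 0.0534). It was also lost without cngc4 replicate 2 (adjusted p = 0.113) and with the repeat mark as a covariate (adjusted p = 0.0527). No member has a second probe set, so no other choice of probe set could be made. Scanner data and scan dates were not used here, so background correction and scan batches were not varied.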

Other observations

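Of the probe sets that carry the symbol of a family member, 2 name several genes and were not counted as members. The one shared by scpl36 and scpl37 read 0.6 to 1.3 on the 12 arrays, and the one shared by scpl39 and AT3G56540 read 0.4 to 1.7. Among the untested members, scpl38 read 1.0 to 2.3 on the 12 arrays. Of the 12 untested members, 9 had no array above its 40th percentile. The other 3, SCPL32, scpl42 and scpl47, had 1 each.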
